A study of Homo sapiens with 36 samples.

Results

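Nonsense-mediated decay transcripts are messages whose reading frame ends in a stop codon placed before the last exon junctions, as the GENCODE human annotation classes them. The rule took every transcript of that class with a mean of at least 10 estimated counts over the 36 libraries, and it found 5767 members in 3403 genes. They were drawn from 19696 listed transcripts of the class and from 252199 listed transcripts of any type. Members were thus chosen by their mean estimated count, with no use of treatment. Near the threshold, MECR-205 lay inside with a mean of 10.0019 and CCDC138-202 outside with a mean of 9.99. Of the other 13929 transcripts of the class, 3351 were listed at 0 in every library. Members are named by their GENCODE release 44 transcript names, and 16821 listed transcripts, which held between 3.99% and 4.52% of the counts of a library, could not be matched to that release and were left out of the classes. The authors' own annotation release was not given in the sources used here.

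The study treated 3 cultured lines of human acute myeloid leukemia, HL60, MOLM13 and OCIAML3, for 24 h with cytarabine at 0.1 µM, with the anthracycline daunorubicin at 0.02 µM, with their combination at these same doses, or with the solvent DMSO as control. Cytarabine is a nucleoside analog that is built into DNA and stops its synthesis. Daunorubicin slips between DNA bases and traps topoisomerase II on cut DNA. RNA was sequenced from 3 labelled biological replicates per group, in 12 groups. Whether replicates came from separate cultures is not said in the sources used here, and p-values then cover only the spread between these samples. Library totals ran from 25067734 to 47322144 estimated counts, of which members held 586517 to 1112011. Of 10 myeloid markers, 7 were above 1 TPM (the abundance unit of the files, scaled for transcript length and library size) in HL60, 9 in MOLM13 and 8 in OCIAML3, and CD34 was at or near 0 in all lines, as were HOXA9 and MEIS1 in HL60. Of 13 markers of other cell types, the endothelial and myeloid gene PECAM1 reached 74.3 TPM in MOLM13 and 116 TPM in OCIAML3, and the rest stayed under 10 TPM. In OCIAML3 2 libraries stood apart from their groups, the one labelled cytarabine replicate 3 and the one labelled combination replicate 3. The p53 target CDKN1A was at 83.3 and 74.6 TPM in cytarabine replicates 1 and 2 and at 292 TPM in the library labelled replicate 3, and at 1101 and 808 TPM in combination replicates 1 and 2 and at 63.9 TPM in the library labelled replicate 3, against 57 to 79.6 TPM in DMSO. Whether these 2 libraries were exchanged was not tested, no library was relabelled, and OCIAML3 counts are also given without them. These are bulk samples, in which fewer cells of a kind and less RNA per cell cannot be told apart.

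In nonsense-mediated decay, a ribosome that stops well before an exon junction meets the exon junction complex still bound there. The helicase UPF1 is recruited with its partners UPF2 and UPF3B, is phosphorylated by the kinase SMG1, and the message is cut or shortened through factors that include SMG5 and SMG6. Many genes of RNA-binding proteins use the pathway to control themselves: an SR protein or hnRNP promotes the inclusion of a poison exon, or the splicing of an intron after the stop codon, in its own pre-mRNA. The level of such a transcript therefore reflects how often it is made as well as how fast it decays. RNA-seq at 1 time point measures only the product of both.

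Some members on which the results turn are shown by the bases at which they leave the MANE Select transcript, the reference protein-coding transcript of the gene. Each sequence was read from GRCh38 through GENCODE release 44 and runs 5′ to 3′ on the strand of the gene. Lower case marks the last 15 shared exon bases and capitals mark the next 15 exon bases of each transcript, after the point where their exons part, some of which can be the same base in both. SRSF3 and SRSF6 carry poison exons, DCK-202 and LUC7L-207 read on past the first splice donor, and the intron-derived capitals of these last members begin with GT.
SRSF3-203 (plus strand, junction chr6:36598983-36599821): tccacctcgtcgcagAGTCACCATCATGTC
SRSF3-202 (MANE Select, junction chr6:36598983-36601152): tccacctcgtcgcagATCTCCAAGAAGGAG
SRSF6-202 (plus strand, junction chr20:43458509-43459153): gctacggaagccgcaTGACCAATGGGGCTG
SRSF6-201 (MANE Select, junction chr20:43458509-43459771): gctacggaagccgcaGTGGTGGAGGTGGAT
SNRNP70-202 (plus strand, junction chr19:49101471-49102114): agcgagacatgcactCCACCACGCAGCTGG
SNRNP70-206 (MANE Select, junction chr19:49101471-49104634): agcgagacatgcactCCGCTTACAAACACG
LUC7L-207 (minus strand, no junction, chr16:229278-229279): gcacggctcgggacgGTGAGTCAGAGCGGC
LUC7L-201 (MANE Select, junction chr16:227336-229279): gcacggctcgggacgGAGACGAAACCAGAC
DCK-202 (plus strand, no junction, chr4:70993926-70993927): tcgaagggaacatcgGTAAGGAGCCTCCGG
DCK-201 (MANE Select, junction chr4:70993926-70998067): tcgaagggaacatcgCTGCAGGGAAGTCAA

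HNRNPDL-202 and HNRNPD-211 belong to another kind. They stop at the stop codon of the MANE Select transcript and are classed as decay targets because further junctions follow it in their own exons. Their last 27 coding bases are shown in lower case and the stop codon in capitals.
HNRNPDL-202 (minus strand, stop codon chr4:82426059-82426061): aatcaccaaaacaattaccagccatacTAA
HNRNPD-211 (minus strand, stop codon chr4:82355334-82355336): ggtcatcaaaatagctacaaaccatacTAA
In HNRNPDL-202 the stop codon lay 127 bases before the last junction and in HNRNPD-211 137 bases before it.

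All 5767 members lay in protein-coding genes. The stop codon of 2882 members (49.97%) fell in an exon of the MANE Select transcript ahead of that transcript's own stop, which is where a skipped exon or a shifted splice site that breaks the frame puts it. In 1567 members (27.17%) it fell in an exon absent from the MANE Select transcript, in 788 (13.66%) in an extension of one of its exons, and in 329 (5.705%) it was the MANE Select stop itself. The median distance from the stop codon to the last junction was 555 bases, and 5758 of 5763 measured members had more than 50, which is close to the annotation's own definition of the class and is not a result. The median member was 2152 bases long, beside 2472 for protein-coding transcripts over the same minimum. Most were minor products. The median member held 3.30% of its gene's TPM over the 36 libraries, 1130 members held under 1% and 108 held over 50%. MTO1, a mitochondrial tRNA modification gene, had the most members, at 17.

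The members with the highest TPM came from genes of the ribosome, of hnRNPs and of the respiratory chain, and few of them moved. RPS3-218, from the gene of a ribosomal protein of the small subunit, held 20.5%, 23.3% and 21.3% of its gene in DMSO-treated HL60, MOLM13 and OCIAML3 (mean of 3 libraries each), and UQCRB-203, from a gene of respiratory complex III, held 67.2%, 64.3% and 66.1%. Of the 10 members of highest mean TPM, RPS3-204 fell in share after the combination in MOLM13 (log2 change of -0.40, edgeR quasi-likelihood adjusted p = 0.043) and ACTG1-213 after daunorubicin in MOLM13 (-0.34, adjusted p = 0.049). The other 8 members of the 10 passed in none of 9 comparisons. Neither call is firm: the first was lost with any of 7 libraries left out (adjusted p up to 0.148) and the second with any of the 12 (up to 0.126). COX6C-206 and COX6C-207, both from a gene of respiratory complex IV, differed sharply between replicates of 1 group. In DMSO-treated MOLM13 COX6C-206 held 11.3%, 89.5% and 89.7% of COX6C and COX6C-207 held 78.9%, 0% and 0.713%, so nearly the whole gene was assigned to one or the other transcript.

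The members together made up a small part of the library TPM, and that part was lower after daunorubicin in all 3 lines. In HL60 they held 1.85%, 1.94% and 1.85% of the library TPM in DMSO and 1.74%, 1.75% and 1.75% after daunorubicin. In MOLM13 the values were 2.05%, 1.97% and 2.03% in DMSO and 1.88%, 1.83% and 1.86% after daunorubicin. In OCIAML3 they were 2.06%, 2.08% and 2.07% in DMSO and 1.97%, 1.99% and 2.05% after daunorubicin. On this scale every daunorubicin library lay below every DMSO library of its line, and within a line an exact two-sided permutation test of 3 against 3 samples cannot go below 0.1, the value reached in each. Over the 3 lines the mean relative difference was -6.11% (exact permutation within lines, two-sided, 9 against 9 samples, p = 0.00025, the smallest that 8000 arrangements can give, adjusted p = 0.0015 over 6 tests).

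After the combination the members' library share was lower in MOLM13, at 1.85%, 1.87% and 1.85%, and its libraries overlapped those of DMSO in HL60 and OCIAML3. The mean relative difference over the lines was -3.62% (exact permutation p = 0.0145, adjusted p = 0.029 over 6 tests). On estimated counts in place of TPM the same difference was 1.09% with an exact permutation p = 0.575, and with the TPM of nuclear protein-coding genes as the denominator it was -1.37% with p = 0.291, so the direction after the combination depends on the unit. After cytarabine the difference was -1.92% (exact permutation p = 0.104). For cytarabine the difference was -3.35% (p = 0.00975, exact permutation) over members with a mean of at least 100 and -2.75% (p = 0.00475) without HL60 cytarabine replicate 1. For daunorubicin the counts gave -2.19% (exact permutation p = 0.00575), with libraries that overlapped DMSO in MOLM13 and OCIAML3. Against nuclear protein-coding genes it gave -4.67% (exact permutation p = 0.0005), with overlap in HL60. The mitochondrial share of the library TPM was 13.4%, 8.08% and 5.39% higher in relative terms after daunorubicin in HL60, MOLM13 and OCIAML3, with no overlap in MOLM13 alone, and its part in the members' share was not tested beyond that denominator.

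Against the TPM of their own 3403 genes, the members held between 6.87% and 7.73% in every library. In MOLM13 the share was 7.47%, 7.26% and 7.37% in DMSO and 6.95%, 7.0% and 6.97% after the combination. In HL60 it was 7.06%, 7.42% and 7.19% in DMSO and 7.64%, 7.47% and 7.38% after the combination, where groups overlap. The combination libraries lay below DMSO in MOLM13 and mostly above it in HL60, a contrast between lines that was not tested. Daunorubicin gave a mean relative difference over the lines of -3.71% on TPM (exact permutation p = 0.0005, adjusted p = 0.0015 over 6 tests), but 0.562% on estimated counts (p = 0.416). The same exact permutation test gave 0.147% for cytarabine (p = 0.915) and for the combination -0.819% (p = 0.476) on TPM, and 2.82% (p = 0.0453) and 4.59% (p = 0.00275) on counts, so here too the direction depends on the unit for daunorubicin and the combination. Retained-intron transcripts, another class that seldom makes protein, did not follow the members in the mean over the lines. Their library share of TPM rose by 7.21% after the combination (exact permutation over the 3 lines, p = 0.01025, not adjusted), and their difference of 4.14% after daunorubicin had p = 0.07825. Their treated libraries lay apart from DMSO in MOLM13 alone, by 13.7% after the combination and 12.4% after daunorubicin. The values were 2.40% and -2.70% in HL60 and 5.52% and 2.77% in OCIAML3, with overlap.

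**Figure D1:**
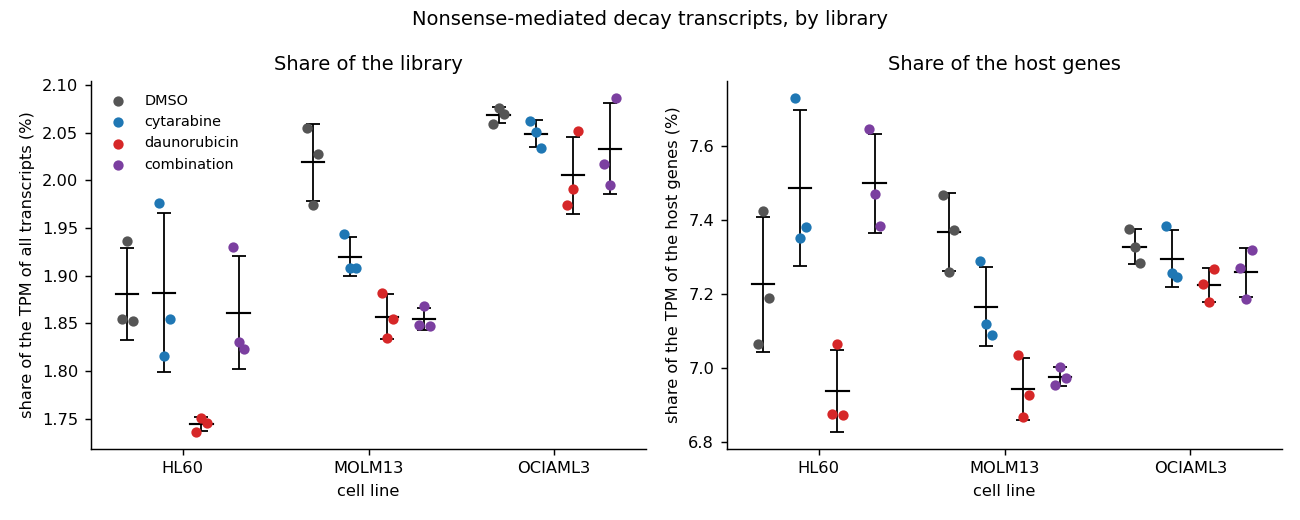
Share of the nonsense-mediated decay transcripts in the TPM of the library (left, percent) and in the TPM of their genes (right, percent), with 1 point per library, bars at the mean and whiskers of 1 SD over 3 libraries; the axes do not start at 0. The daunorubicin points lie below the DMSO points of their line on the left, and in HL60 the highest cytarabine and combination points lie above DMSO on the right.

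Single members were tested by their share of the gene's TPM, which asks whether the decay form gained or lost against the other transcripts of its gene, and by their level. Share calls at a false discovery rate under 0.05 were rare and lay in HL60 and MOLM13. In HL60, 23 members rose and 9 fell in share after cytarabine, 0.641% of 4996 tested, where 0.684% of all 53358 transcripts of any type were called. After the combination 47 rose and 23 fell, 1.40% of members against 1.67% of all transcripts, and after daunorubicin 2 rose, PIK3CA-207 and MAPK11-203, and 0 fell, against 0.075%. With the replicate number as a block these 2 calls became 0. In MOLM13, 50 rose and 24 fell after daunorubicin, 1.49% of 4958 tested against 1.82% of all transcripts, and 58 rose and 20 fell after the combination, 1.57% against 2.29%. After cytarabine 3 rose in MOLM13, RBMX-212, CIRBP-228 and TCTN1-217, against 0.0689% of all transcripts. The members' shares of calls therefore lay near or below those of all transcripts. Some called members had a mean under 10 estimated counts, the minimum of the filter, in their lower group, and so passed that filter through groups in which they were higher. These were 9 of 32 and 10 of 70 in HL60 after cytarabine and the combination, both HL60 members after daunorubicin, 2 of 3 in MOLM13 after cytarabine, and 12 of 74 and 11 of 78 there after daunorubicin and the combination, and their calls are a description. In each of these 6 comparisons more members rose than fell, although the median log2 change of all tested members lay between -0.0472 and 0.0612. The split by direction over all called transcripts is not given here, so the excess is not read as particular to the members. After the combination in MOLM13, 12.6% of all transcripts lay wholly above DMSO in share and 10.1% wholly below, beside 10.6% and 9.24% of members. In HL60 these values were 11.8% and 12.2%, beside 13.2% and 10.4% of members. Within a line the 3 comparisons share their DMSO samples and are not independent.

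In OCIAML3, edgeR called 0 of 5092 tested members by share in any comparison, where it called 0.00175% of all transcripts for cytarabine, 0% for daunorubicin and 0% for the combination. Taken in that order, 206, 311 and 259 members had p below 0.05 before adjustment. The edgeR function diffSpliceDGE called 24, 22 and 22, limma on log2 ratios with a pseudocount of 0.1 called 2, 1 and 1, and without the libraries labelled cytarabine replicate 3 and combination replicate 3 the edgeR count was 1 for the combination. A difference between OCIAML3 and the other lines in these changes was not tested. In libraries simulated from HL60, for cytarabine against DMSO, the tests passed few of the changes built into them, and OCIAML3 was not simulated. The absence of a call does not show that a member kept its share.

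A call by level also needed a log2 fold change beyond 1 either way. In this sense edgeR called 184 members after cytarabine in HL60, 124 higher and 60 lower, against 6.09% of all transcripts, 21 after daunorubicin (37 with a replicate block) against 1.02%, and 351 after the combination, 193 higher and 158 lower, against 10.9%. In MOLM13 it called 78 members after cytarabine against 2.29% of all transcripts, 316 after daunorubicin against 8.49% and 288 after the combination against 8.54%. The members called were 3.64%, 0.416% and 6.95% of those tested in HL60 and 1.56%, 6.3% and 5.75% in MOLM13, lower than the share of all transcripts in each. In OCIAML3 edgeR called 0 members in every comparison, against 0.00335% of all transcripts after cytarabine and 0% after the others. There, in the order used above, 195, 405 and 321 members had p below 0.05 before adjustment, DESeq2 called 40, 13 and 39, and without the libraries labelled cytarabine replicate 3 and combination replicate 3 edgeR called 9 after daunorubicin and 61 after the combination.

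The calls rest on few libraries, and the counts named here moved by more than 1.5 times. In MOLM13 the 74 share calls after daunorubicin became 18 without DMSO replicate 1 and 36 to 45 without DMSO replicate 2 or 3, cytarabine replicate 1 or 2 or any daunorubicin replicate. The 78 after the combination became 23 without DMSO replicate 1 and 33 to 41 without DMSO replicate 2 or 3 or combination replicate 2 or 3. In HL60 the 70 calls after the combination became 27 to 34 without any DMSO replicate or combination replicate 1 or 2, and the 32 after cytarabine became 11 to 20 without any DMSO or cytarabine replicate. By level, the 184 calls after cytarabine in HL60 became 93 without cytarabine replicate 1 and 111 without DMSO replicate 3, and the 351 after the combination became 229 without DMSO replicate 3. In MOLM13 the 316 after daunorubicin and 288 after the combination became 193 and 182 without DMSO replicate 1, and the 78 after cytarabine became 20 to 45 without DMSO replicate 1 or 3 or any cytarabine replicate. The 21 in HL60 after daunorubicin became 8 to 13 without DMSO replicate 2 or 3 or daunorubicin replicate 2 and 32 without daunorubicin replicate 3. Of the calls, 17 of 70 in HL60 after the combination, 9 of 32 after cytarabine, 15 of 74 in MOLM13 after daunorubicin and 18 of 78 after the combination were made in all 12 fits that left out 1 library. Of the 105 calls by share of members named here, diffSpliceDGE kept 36, limma with a pseudocount of 0.1 kept 62, the replicate block 80 and no filter 81. In all, 167 members of 158 genes were called in at least 1 comparison, 77 in HL60 and 101 in MOLM13. The 11 called in both lines were 14.3% of the HL60 set and 10.9% of the MOLM13 set. Among them were HNRNPDL-202, SNRNP70-202, SRSF6-202, SRSF7-204 and RBMX-212, all from genes of splicing or RNA-binding factors, with KAT2A-202 from a histone acetyltransferase gene, TAF1D-201, NAPA-205, RPL13A-214 and ENO1-214.

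SR proteins bind exons and promote their splicing, and 14 of 17 listed SR protein genes held 26 members. Of these 26, 2 and 3 rose in share in HL60 after cytarabine and the combination and 4 and 3 in MOLM13 after daunorubicin and the combination, and 0 fell, while the other members did not pass. Of all transcripts, 0.684%, 1.67%, 1.82% and 2.29% were called in these comparisons. The list was written with earlier results of these data known. The median log2 change in share over the 26 members was 0.95, 0.80, 0.19 and 0.15 in these comparisons, beside medians of 0.0612, 0.0582, 0.0226 and 0.0092 over all members tested, with 20, 20, 16 and 17 of the 26 above 0. Their median log2 fold change in level was 0.36, 0.36, -0.32 and -0.50, with 1, 0, 1 and 0 called higher and 2, 2, 2 and 3 lower. With no share call, the median change in share was 0.20 in HL60 after daunorubicin and 0.27 in MOLM13 after cytarabine. In OCIAML3 it was 0.01, 0.05 and 0.21 after cytarabine, daunorubicin and the combination. SRSF3-203, which includes the poison exon shown above, held 7.28%, 10.7% and 6.31% of SRSF3 in HL60 in DMSO, 33.0%, 24.2% and 25.7% after cytarabine and 33.3%, 29.4% and 21.6% after the combination. Every treated library lay far above every DMSO library (log2 change in share of 1.77 ± 0.25, SE, adjusted p = 0.0173 after cytarabine, and 1.8 ± 0.25, adjusted p = 0.0104 after the combination, edgeR quasi-likelihood). SRSF3 as a gene fell there, with log2 fold changes of -0.85 and -0.96 (edgeR adjusted p = 0.000367 and 9.56e-05). The member's own level rose, with 1.04 and 0.91 (adjusted p = 0.0169 and 0.02). After daunorubicin alone the HL60 values were 11.2%, 11.7% and 7.94%, which overlap DMSO. In MOLM13 SRSF3-203 reached 12.9%, 14.4% and 11% after daunorubicin from 9.56%, 9.63% and 8.45%, and did not pass (adjusted p = 0.0503). The cytarabine call in HL60 was lost without DMSO replicate 1, DMSO replicate 3 or cytarabine replicate 1, with adjusted p up to 0.0636, while the combination call held in all 12 fits.

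SRSF6-202 moved in both lines. In MOLM13 it held 19.9%, 22.4% and 21.1% of SRSF6 in DMSO, 37.0%, 30.4% and 33.1% with daunorubicin and 36.9%, 38.2% and 41.1% with the combination. No treated library overlapped DMSO (log2 change in share of 0.66 ± 0.09, adjusted p = 0.00907, and 0.87 ± 0.09, adjusted p = 0.00314), and both calls held with any 1 library left out. After cytarabine the MOLM13 libraries also lay above DMSO, at 34.8%, 29.2% and 32.2%, with an adjusted p of 0.0524. In HL60 the combination raised it from 23.5%, 20.6% and 23.8% to 40.9%, 40.8% and 39.1% (adjusted p = 0.0312), a call lost with any of 7 libraries left out (adjusted p up to 0.105). The level of SRSF6 as a gene changed little in these comparisons, with log2 fold changes of -0.07 in MOLM13 after daunorubicin and after the combination and -0.23 in HL60 after the combination, and none of them passed.

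SRSF7 differed from SRSF6 in that the whole gene fell, as SRSF3 did in HL60. SRSF7-208, whose stop codon lies in an extension of a MANE Select exon, held 21.9%, 19.4% and 22% of SRSF7 in MOLM13 in DMSO and 40.4%, 38.0% and 35.3% after daunorubicin (adjusted p = 0.00517) and 31.9%, 38.5% and 41.3% after the combination (adjusted p = 0.00464). Its own level fell, with log2 fold changes of -0.35 (adjusted p = 0.0289) and -0.34 (adjusted p = 0.0321), and the gene fell by more, with -1.03 and -0.99. The other transcripts of the gene thus lost more than the decay form did. SRSF7-204, which carries a separate exon, rose in share from 1.97%, 1.79% and 1.76% to 4.12%, 5.22% and 4.92% after daunorubicin in MOLM13 (adjusted p = 0.0196), from the same values to 3.33%, 5.76% and 4.63% after the combination (adjusted p = 0.0195), and from 2.84%, 3.59% and 2.52% to 9.49%, 8.10% and 6.62% after the combination in HL60 (adjusted p = 0.0304). These SRSF7-204 calls were lost with any of 5 to 6 libraries left out, DMSO replicate 1 of the line among them. SRSF2-208 rose in HL60 after cytarabine, from 2.86%, 3.55% and 3.23% to 6.98%, 5.61% and 7.61% (adjusted p = 0.0253, 0.0874 without the least favourable library). SRSF2 as a gene fell there, with a log2 fold change of -0.89 (adjusted p = 4.99e-05). The own level of SRSF2-208 did not pass (0.28, adjusted p = 0.526). SRSF7-206 rose after daunorubicin in MOLM13 from 0.0896%, 0.0896% and 0.0632% to 0.615%, 0.825% and 0.473% (adjusted p = 0.02, up to 0.0731 with 1 library left out).

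The hnRNPs bind pre-mRNA and often oppose the SR proteins. Their list, which also takes in related RNA-binding proteins, held 81 members in 29 genes. Of these, in HL60 3 rose after cytarabine and 5 after the combination, and 1, 6 and 6 rose after cytarabine, daunorubicin and the combination in MOLM13, where 1 fell with daunorubicin and 1 with the combination. Tested were 76 in HL60 and 71 in MOLM13, beside the 0.684%, 1.67%, 0.0689%, 1.82% and 2.29% of all transcripts called in these comparisons. The MOLM13 riser after cytarabine was CIRBP-228, which is also among the 6 after each other treatment. It was listed at 0 in DMSO and passed the filter only through treated libraries, so its rises are a description. In HL60 the median log2 changes in share over the list were -0.06 and -0.01 after cytarabine and the combination, with 34 and 38 of 76 above 0, and in MOLM13 the medians were -0.08, 0.09 and 0.04. The faller was HNRNPU-228 both times, named after its values were seen, from a mean of 22.3% of HNRNPU in DMSO to 16.5% and 15.2%. HNRNPDL-202 was at 3.25%, 5.09% and 2.98% of HNRNPDL in HL60 in DMSO, at 20.4%, 15% and 17.7% after cytarabine and at 24.2%, 23.6% and 26.6% after the combination. The log2 change in share was 2.23 ± 0.20 (adjusted p = 0.00399) and 2.72 ± 0.21 (adjusted p = 0.000923), and both calls held in all 12 fits that left out 1 library. In MOLM13 it rose from 3.12%, 2.98% and 4.47% to 7.70%, 10.2% and 12.3% after the combination (adjusted p = 0.00974), and to 9.66%, 10.1% and 7.94% after daunorubicin (adjusted p = 0.016, lost without DMSO replicate 1 or 2, up to 0.0707). The gene HNRNPDL fell, with log2 fold changes of -1.11 with cytarabine and -1.28 with the combination in HL60 and of -0.80 with the combination and -0.73 with daunorubicin in MOLM13, while the member's own level rose in HL60 by 1.03 and 1.24 on the log2 scale.

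HNRNPD, which encodes the AU-rich element binding protein AUF1 and has a similar intron after its stop codon, gave the same picture in HL60. HNRNPD-211 went from 0.435%, 0.520% and 0.589% in DMSO to 4.63%, 3.08% and 3.51% after cytarabine (adjusted p = 0.0132) and 7.93%, 5.90% and 5.26% after the combination (adjusted p = 0.00358). HNRNPD fell as a gene there, with log2 fold changes of -0.92 and -1.13. In MOLM13 a different member of the gene was called, HNRNPD-206, at 1.81%, 2.75% and 1.86% in DMSO and 5.32%, 6.91% and 10.3% after the combination (adjusted p = 0.018, lost without DMSO replicate 1 or 3, up to 0.0787). The gene fell there, with a log2 fold change of -1.04, and the own level of HNRNPD-206 did not pass (0.74, adjusted p = 0.0865). HNRNPM-214 rose in MOLM13 from 0.386%, 0.668% and 0.511% to 2.91%, 2.36% and 1.57% after daunorubicin (adjusted p = 0.0124, 0.0524 without DMSO replicate 1) and HNRNPU-208 from 6.31%, 5.70% and 6.46% to 10.7%, 10.5% and 11.1% after the combination (adjusted p = 0.0105). Both genes fell there, HNRNPM with a log2 fold change of -1.05 and HNRNPU with -0.31. By level HNRNPM-214 rose by 1.06 (adjusted p = 0.0283), and HNRNPU-208 did not pass (0.25, adjusted p = 0.252). LUC7L-207, which reads into the first intron of a U1 snRNP-associated gene, rose from 6.73%, 6.23% and 7.09% in MOLM13 to 12.4%, 13.4% and 12.5% with daunorubicin and 13.9%, 14.8% and 13.9% with the combination (adjusted p = 0.00371 and 0.00202), with no change of the gene that passed. RBM39-236, from the gene of a splicing coactivator, rose in HL60 from 8.08%, 7.41% and 7.10% to 13.5%, 12.6% and 13.1% after cytarabine (adjusted p = 0.00957) and to 14.2%, 14.1% and 13.5% after the combination (adjusted p = 0.00374). RBMX-212, from the gene of an RNA-binding protein outside that list, rose in share in all 3 MOLM13 comparisons, from 2.94%, 3.11% and 2.83% to between 5.24% and 7.08% in the 9 treated libraries, with adjusted p of 0.0145 for cytarabine, 0.00276 for daunorubicin and 0.00142 for the combination. In that order RBMX as a gene fell, with log2 fold changes of -0.55, -0.57 and -0.61. The own level of RBMX-212 changed by 0.38, 0.32 and 0.46, and passed after the combination alone (adjusted p = 0.092, 0.0896 and 0.021). RBMX-212 stands for no list, and other members outside the lists fell in MOLM13, where 50 members rose and 24 fell in all after daunorubicin.

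Core spliceosome genes held 40 members in 22 genes, of which 2 rose and 1 fell in MOLM13 after daunorubicin, 2 rose and 2 fell there after the combination, and 1 rose in HL60 after the combination. Of the 40, 38 were tested in MOLM13 and 39 in HL60, where 1.82% and 2.29% of all transcripts were called in MOLM13 and 1.67% in HL60, and the median log2 changes in share were 0.21, 0.19 and 0.16. SNRNP70-202 carries an extra exon in the gene of the U1-70K protein of the U1 snRNP. It held 10.5%, 9.95% and 8.89% of SNRNP70 in HL60 in DMSO and 22.2%, 21.6% and 17.5% after the combination (log2 change in share of 1.06 ± 0.18, adjusted p = 0.025, lost with any of 5 libraries left out, up to 0.086). In MOLM13 it went from 8.36%, 10.4% and 10.2% to 19.6%, 23.5% and 19.3% after daunorubicin (adjusted p = 0.0153, 0.0655 without DMSO replicate 1) and 15.1%, 22.5% and 23.4% after the combination (adjusted p = 0.0145, up to 0.0636). Another member of that gene, SNRNP70-209, moved the other way in MOLM13 after the combination, from 4.17%, 4.26% and 5.01% to 2.32%, 3.24% and 2.91% (adjusted p = 0.0497, lost with any library left out). ACIN1-206, from a gene of an accessory protein of the exon junction complex, rose in MOLM13 from 10.5%, 11.8% and 10.5% to 15.4%, 16.4% and 15.3% after daunorubicin (adjusted p = 0.00728) and 16.0%, 17.1% and 15.3% after the combination (adjusted p = 0.00476), and both calls held in all 12 fits.

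**Figure D2:**
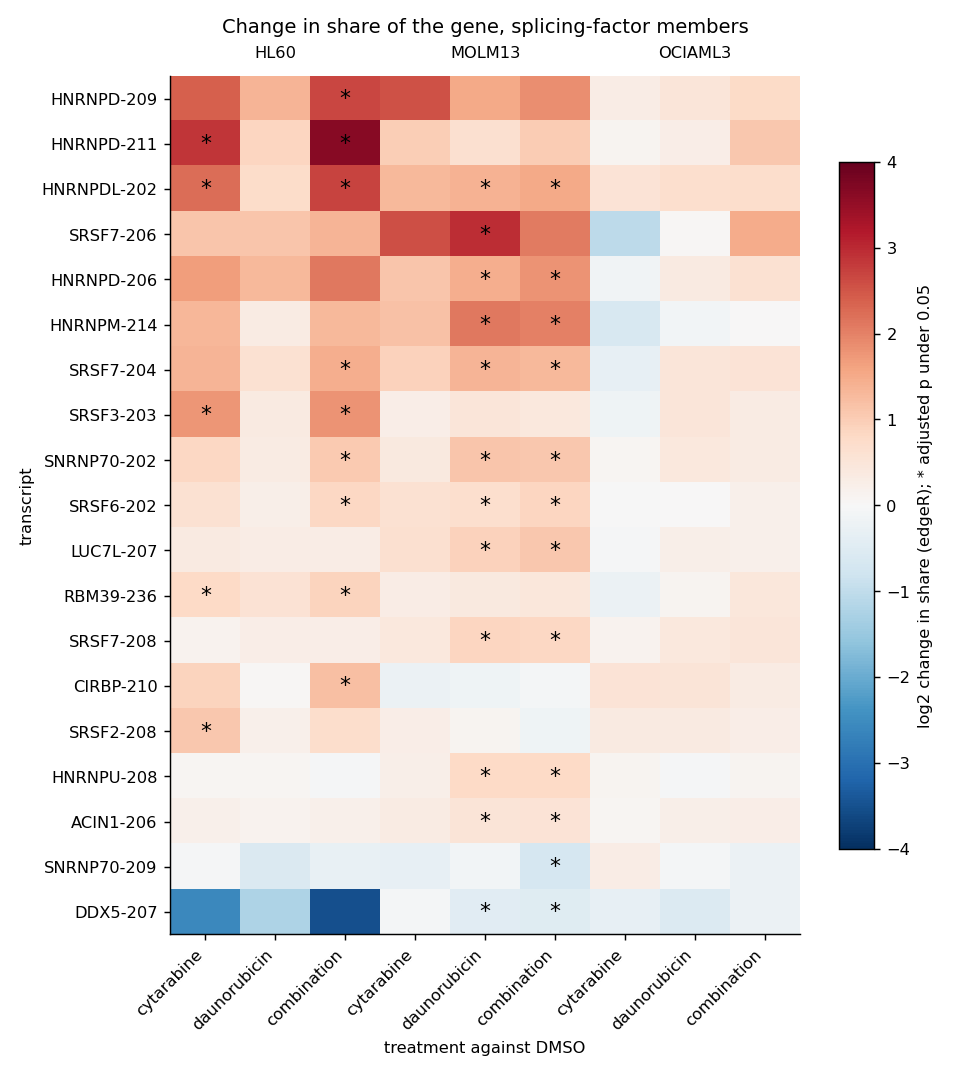
Log2 change in share of the gene's TPM for 19 members that the naming rule took from the SR, hnRNP and spliceosome lists, each called by share in at least 1 comparison, with cell lines and treatments in columns and asterisks at an adjusted p under 0.05. Rows are ordered by the mean change over HL60 after cytarabine and the combination and MOLM13 after daunorubicin and the combination. Red marks a higher and blue a lower share than in DMSO; 17 members were called only where they rose, SNRNP70-209 and DDX5-207 only where they fell, and no OCIAML3 cell carries an asterisk. CIRBP-228, listed at 0 in some groups, and HNRNPU-228, outside the rule, are not drawn.

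A smaller set of members lost share. DCK-202, chosen after its values were seen, comes from the gene of deoxycytidine kinase, which adds the first phosphate to cytarabine inside the cell. In HL60 it held 17.6%, 17.5% and 20.3% of DCK in DMSO, 5.88%, 8.18% and 6.21% after cytarabine and 5.60%, 5.40% and 4.95% after the combination. The log2 change in share was -1.45 ± 0.14 (adjusted p = 0.00472) and -1.79 ± 0.14 (adjusted p = 0.00099), and both calls held with any 1 library left out. The gene rose slightly after the combination, by 0.33 on the log2 scale (adjusted p = 0.00836). After daunorubicin alone the HL60 libraries lay below DMSO, at 11.2%, 9.71% and 10.3%, but did not pass (adjusted p = 0.1). In MOLM13 the combination libraries lay above DMSO, at 25.3%, 23.1% and 19.5% against 13.5%, 13.7% and 14.7%, and did not pass (adjusted p = 0.214), while the gene there fell by 1.03 on the log2 scale.

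EIF4A2-202 comes from the gene of a helicase that unwinds messages for translation and whose intron also hosts small nucleolar RNAs. In MOLM13 it went from 21.7%, 20.5% and 19.7% of EIF4A2 in DMSO to 12.2%, 10.4% and 13.0% with daunorubicin and 11.2%, 9.55% and 9.51% with the combination (log2 change in share of -0.80 ± 0.10, adjusted p = 0.00717, and -1.03 ± 0.10, adjusted p = 0.00264). Both calls held in all 12 fits, and EIF4A2 as a gene rose there, with log2 fold changes of 0.55 and 0.58. In HL60 the same member lay at 30.7%, 26.3% and 16.7% after the combination against 19.3%, 20.1% and 13.7% in DMSO, with groups that overlap, and OCIAML3 gave 16.9%, 19.4% and 19.7% after the combination against 20.3%, 21.9% and 22.1%, below DMSO without passing. RRM2-214, from the gene of a subunit of ribonucleotide reductase, which makes deoxynucleotides, fell in HL60 from 2.22%, 2.46% and 2.59% to 0.186%, 0.272% and 0.280% after cytarabine (adjusted p = 0.0274, lost with any of 6 libraries left out, up to 0.116) and to 0.213%, 0.0590% and 0.138% after the combination (adjusted p = 0.00857). RRM2 as a gene rose there by 0.97 and 1.27. DDX5-207, from the gene of an RNA helicase, fell in MOLM13 from 22.1%, 22.1% and 22.3% to 16.0%, 15.5% and 15.7% after the combination (adjusted p = 0.0263, up to 0.0895 with 1 library left out) and to 17.9%, 14.7% and 15.8% after daunorubicin (adjusted p = 0.0384, up to 0.118), and RPL3-204 fell in HL60 from 0.889%, 1.34% and 1.06% to 0.264%, 0.217% and 0.324% after the combination (adjusted p = 0.0243, up to 0.0885).

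**Figure D3:**
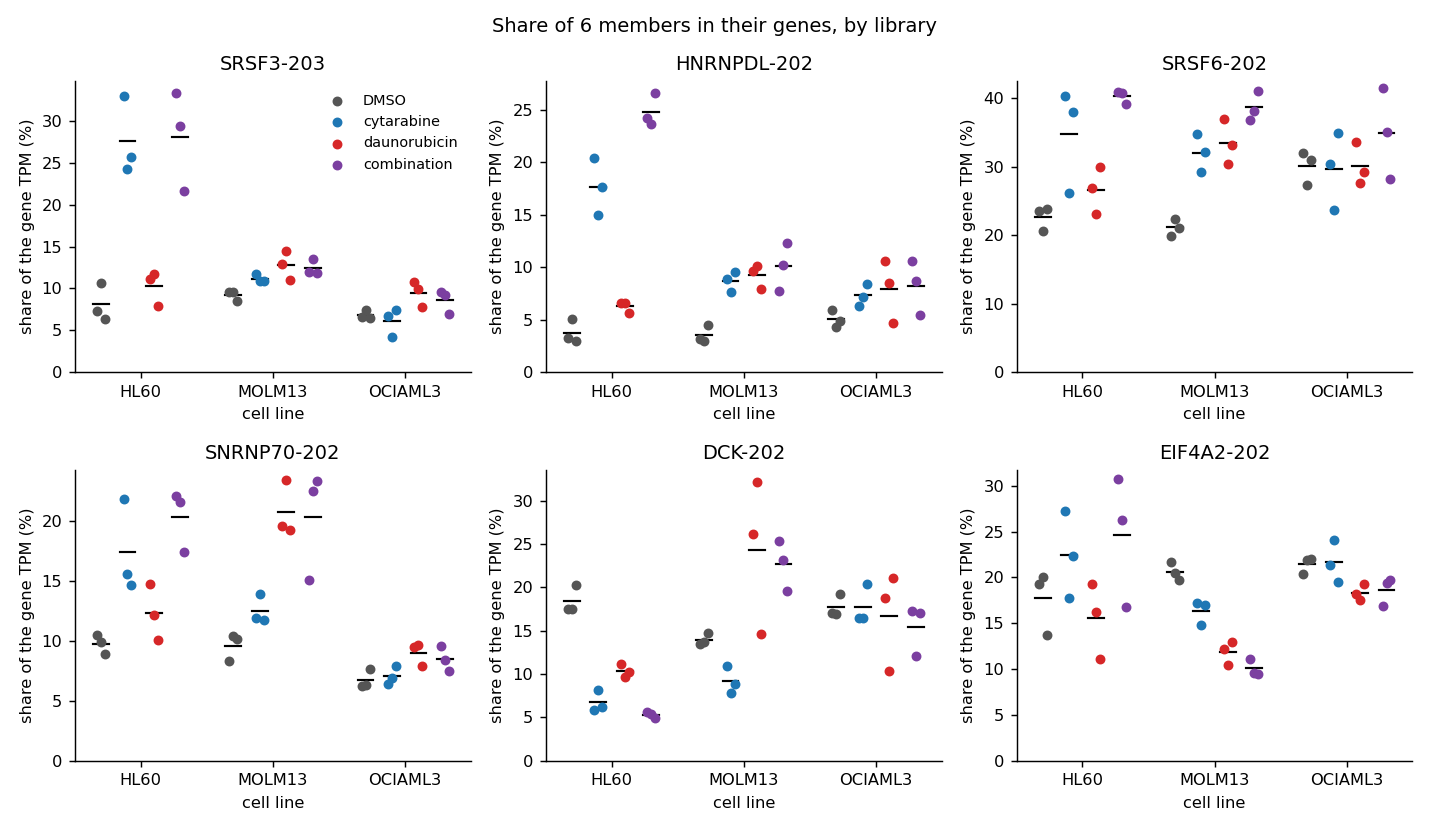
Share of 6 members in the TPM of their genes (percent, axes from 0), with 1 point per library and a bar at the mean of 3, by cell line and treatment. SRSF3-203 and HNRNPDL-202 reach over 20% in HL60 after cytarabine or the combination, SRSF6-202 and SNRNP70-202 rise in HL60 and MOLM13, DCK-202 falls to about 5% in HL60 after the combination, and EIF4A2-202 falls in MOLM13.

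Some called members were listed at 0 in every library of a group, so their shares are given with no fold. In HL60, CDK5RAP2-236, from a centrosome gene, was listed at 0 in DMSO and held 32.9%, 5.50% and 19.2% of its gene after cytarabine and 41.7%, 13.5% and 20.0% after the combination. PIK3CA-207, from the gene of a catalytic subunit of PI3 kinase, was listed at 0 in DMSO and lay between 6.15% and 35.7% in the 9 treated libraries, and it was called after all 3 treatments, as was MAPK11-203, which lay between 6.78% and 21.0%. The PIK3CA-207 call after daunorubicin was lost with any library left out (adjusted p up to 0.108) and that of MAPK11-203 with any of 10 (up to 0.13). For MAPK11 and JUN the gene itself rose, with JUN at a log2 fold change of 5.89 after the combination, and JUN-202 held 22.9%, 29.9% and 18.1% of it there after 0 in DMSO. CDK5RAP2-236, PIK3CA-207, MAPK11-203 and JUN-202 passed the filter only through treated libraries, so these rises are a description. With limma and a pseudocount of 1 the log2 change turned to -0.82, -0.55 and -1.14 for MAPK11-203 after cytarabine, daunorubicin and the combination and to -0.47 and -0.30 for JUN-202 after cytarabine and the combination. Those listed at 0 after treatment included SMC1A-203, from a cohesin gene, at 16.0%, 15% and 17.6% of SMC1A in DMSO and at 0 after cytarabine and after the combination in HL60 (adjusted p = 0.026 and 0.0163, both lost without any 1 DMSO library). In MOLM13, CIRBP-228, from the gene of a cold-inducible RNA-binding protein, was listed at 0 in DMSO and held 2.08%, 3.78% and 2.92% of CIRBP with cytarabine, 0.954%, 2.48% and 2.79% with daunorubicin and 1.27%, 1.09% and 1.24% with both. TCTN1-217 was listed at 0 in DMSO and lay between 4.47% and 16.7% in the 9 treated libraries. CIRBP-228 and TCTN1-217 likewise passed the filter only through treated libraries, so their rises are a description. ZFYVE19-206 was at 26.8%, 17.4% and 18.7% of its gene in DMSO and listed at 0 after daunorubicin and after the combination (adjusted p = 0.0241 and 0.0206, lost without any 1 DMSO library). C2CD3-232 and MPZL1-205 were listed at 0 after daunorubicin and NDUFB5-203 after the combination. No repeated estimates of these values were used here, and how far a 0 came from the assignment of reads among overlapping transcripts was not tested.

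The members that rose in share mostly did so with a rise of their own level and often in genes that fell. Of 47 risers in HL60 after the combination, 34 also rose in level and 20 lay in genes that fell, and of 58 in MOLM13 after the combination, 37 rose in level and 23 lay in genes that fell, at a false discovery rate under 0.05. Of the 23 that lost share in HL60, 20 fell in level, and of the 20 in MOLM13, 15 did. These counts follow in part from the definition of a share. The stop codon lay in an exon absent from the MANE Select transcript in 19 of the 47 HL60 risers and 20 of the 58 MOLM13 risers, and in an extension of a MANE Select exon in 4 and 15 of them, beside 27.17% and 13.66% of all members. Among those that lost share, it lay in an absent exon in 3 of 23 in HL60 and 6 of 20 in MOLM13. It lay in an extension in 4 and 1 of them, and no difference between these groups was tested.

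**Figure D4:**
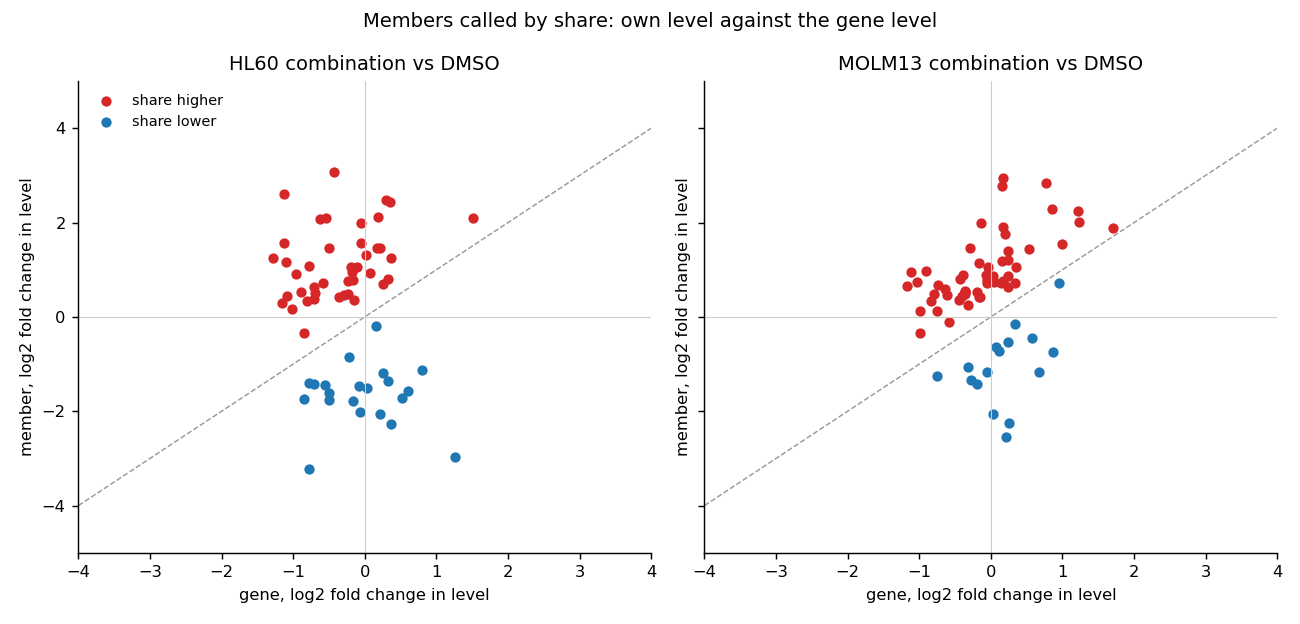
Log2 fold change in the level of each member called by share (vertical) against that of its gene (horizontal) after the combination, in HL60 (63 members) and MOLM13 (70 members), without members listed at 0 in a group; the dashed line marks equal change. In HL60 41 of 42 risers had a member log2 fold change above 0 and 31 a gene log2 fold change below 0, and in MOLM13 52 and 32 of 54.

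Members in other gene groups moved little in share. Of all transcripts, 0.684% and 1.67% were called by share in HL60 after cytarabine and the combination. In MOLM13, 1.82% and 2.29% were called after daunorubicin and the combination. Of 37 members from ribosomal protein genes, RPLP0-214 and RPL13A-214 rose and RPL3-204 fell in HL60 after the combination, RPL3-204 also fell there after cytarabine (adjusted p = 0.0476, lost with any library left out), and in MOLM13 RPL13A-214 rose after daunorubicin and after the combination, where RPS3-204 and RPS20-213 fell. RPL13A-214 went from 0.527%, 0.634% and 0.718% of RPL13A to 1.10%, 1.18% and 1.27% in MOLM13 after the combination (adjusted p = 0.0204, up to 0.0768 with 1 library left out). Of 47 members from translation factor genes, EIF3E-215 rose and EIF4A2-202 fell in MOLM13 after daunorubicin and after the combination and none passed in HL60. Of 54 from tRNA synthetase genes, MARS1-203 rose and IARS1-211 fell to a listed 0 in the same 2 comparisons, with both IARS1-211 calls lost without DMSO replicate 1. Of 14 from p53 target genes, BAX-204 rose in MOLM13 after daunorubicin and the combination and DDB2-203 after the combination. BAX-204 went from 0.443%, 0.368% and 0.242% of BAX to 0.956%, 1.14% and 1.05% after daunorubicin (adjusted p = 0.0439, up to 0.117 with 1 library left out) and 1.01%, 0.676% and 1.32% after the combination (adjusted p = 0.0452, up to 0.143). By level, 6 of 12 tested p53 target members were called higher in MOLM13 after each treatment. The median log2 fold changes were 1.89, 1.65 and 2.07 after cytarabine, daunorubicin and the combination. Of all transcripts, 2.29%, 8.49% and 8.54% were called by level there in either direction. Of 102 members in DNA repair genes, 20 in ribosome biogenesis genes and 16 in apoptosis genes, edgeR called 0 by share in every comparison. Of 23 members in genes of other RNA decay pathways, EXOSC8-233, from an exosome gene, rose in MOLM13 after daunorubicin and the combination. RRM2-214 was the only call among 27 members of replication genes and BIRC5-208 among 16 of mitosis genes, both in HL60.

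The genes that carry out decay were measured as whole genes, and 22 of 23 were tested. At a false discovery rate under 0.05, 16 were lower and 1 higher in HL60 after cytarabine, where 22.6% of all genes were lower, 8 lower after daunorubicin, where 9.58% were, and 15 lower and 1 higher after the combination, where 26.1% were. In MOLM13 13 were lower after cytarabine, where 18.4% of all genes were, 15 after daunorubicin and 16 after the combination, where 27.1% and 27.1% were, with 1, 2 and 1 higher. In OCIAML3 edgeR called 0 lower after cytarabine, daunorubicin and the combination, where 0%, 0% and 0% of all genes were lower, and DESeq2 called 0, 2 and 0. Without the library labelled OCIAML3 combination replicate 3, which enters the shared estimate of spread, edgeR called 12 lower after daunorubicin and 13 after the combination. The HL60 count after daunorubicin was 2 to 5 without daunorubicin replicate 1 or 2 or DMSO replicate 2 or 3, 12 by DESeq2 and 17 with a replicate block. Median log2 fold changes over the 22 genes were -0.45 and -0.51 in HL60 after cytarabine and the combination and -0.36 and -0.39 in MOLM13 after daunorubicin and the combination, beside medians over all genes of 0.0062, 0.0354, 0.0591 and 0.0584.

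UPF1 went from 53.5, 69.9 and 74.8 TPM in HL60 in DMSO to 38.9, 40.4 and 48.8 TPM after the combination (log2 fold change of -0.80 ± 0.15, adjusted p = 0.000625), and in MOLM13 from 58.4, 49.8 and 56.0 to 31.1, 30.2 and 33.2 TPM after daunorubicin (-0.72 ± 0.06, adjusted p = 1.18e-05). GSPT1, the release factor eRF3a that ends translation at stop codons, went from 103, 113 and 112 TPM to 44.9, 44.2 and 53.4 TPM after the combination in HL60 (-1.34 ± 0.11, adjusted p = 1.77e-06) and was lower in all 6 comparisons of HL60 and MOLM13, as were ETF1, its partner eRF1, and RBM8A of the exon junction complex. SMG1 was lower in the 3 HL60 comparisons, at 11, 20.2 and 19.3 TPM after the combination against 22.8, 33.4 and 32.7 in DMSO (adjusted p = 0.000894), and passed in none of MOLM13. MAGOHB fell in MOLM13 from 54.0, 46.1 and 53 TPM to 14.6, 12.9 and 21.3 TPM after daunorubicin (-1.49 ± 0.23, adjusted p = 0.000233). UPF3B was higher in HL60 after cytarabine and the combination and lower in MOLM13 after daunorubicin and the combination. PABPC1, the poly(A)-binding protein, was lower in HL60 and higher in MOLM13 in the same comparisons. The machinery's own 10 decay members, in 6 genes, had 0 share calls by edgeR in all 9 comparisons. Of 16 tested SR protein genes, 12, 12 and 11 were lower in HL60 after cytarabine, daunorubicin and the combination and 12, 9 and 9 in MOLM13. Of all genes, 22.6%, 9.58% and 26.1% were lower in HL60 and 18.4%, 27.1% and 27.1% in MOLM13. In the same order 0, 0 and 0 SR protein genes were higher in HL60 and 0, 1 and 1 in MOLM13. Their median log2 fold changes were -0.49, -0.41 and -0.52 in HL60 and -0.35, -0.49 and -0.51 in MOLM13. The HL60 daunorubicin count was 5 or 6 without daunorubicin replicate 1 or 2, and in OCIAML3 0 were lower, with 11 after daunorubicin and 11 after the combination once combination replicate 3 was left out.

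**Figure D5:**
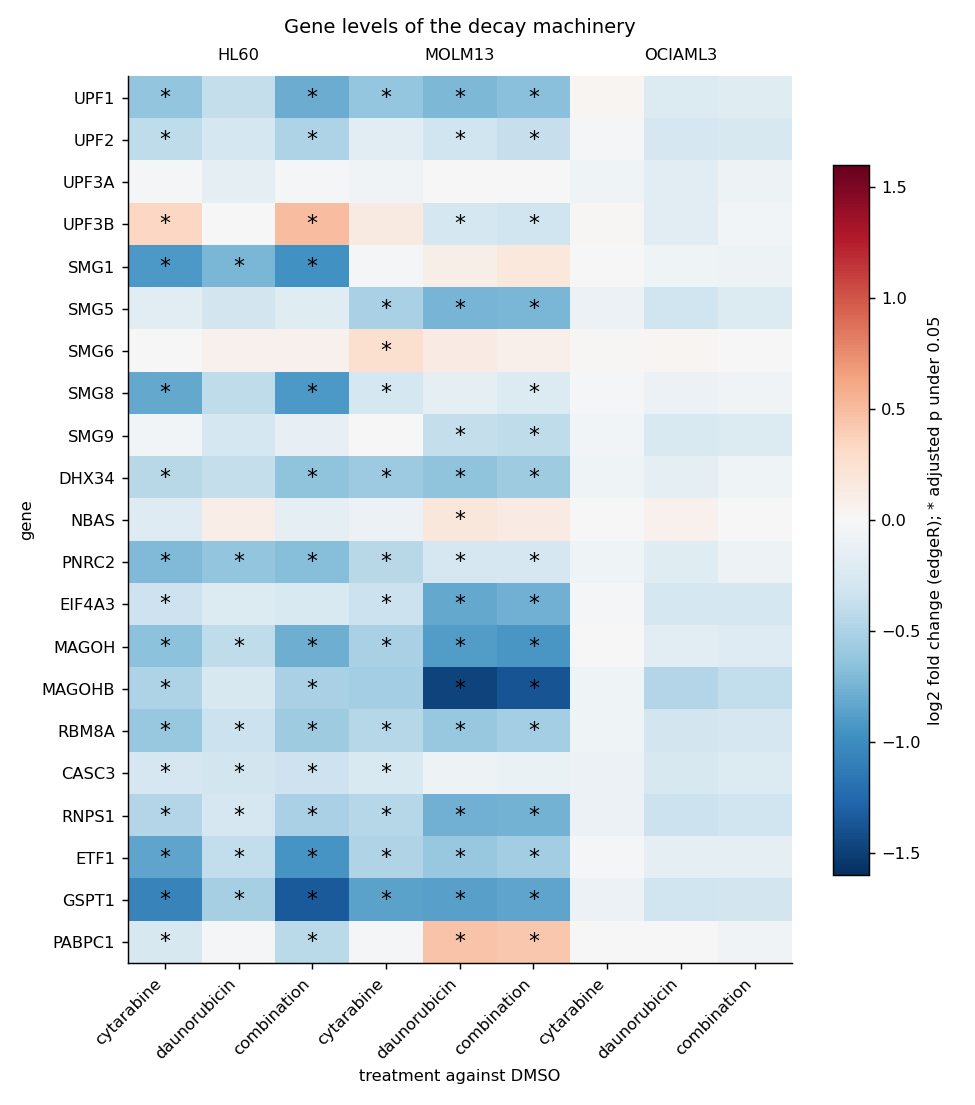
Log2 fold change in gene level of 21 of the 22 tested genes of nonsense-mediated decay and translation termination, with cell lines and treatments in columns and asterisks at an adjusted p under 0.05. Most HL60 and MOLM13 cells are blue (lower than DMSO); UPF3B in HL60 and PABPC1 in MOLM13 are the clearest red ones, and no OCIAML3 cell carries an asterisk.

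A list held 18 genes known as targets of the pathway, of which 17 were tested, and its members passed in both directions. In HL60 6 were higher and 4 lower with cytarabine, 0 and 2 with daunorubicin and 7 and 5 with both. In MOLM13 the counts were 5 and 6, 5 and 7, and 5 and 4. Of all genes, 47%, 23.3% and 55.3% were called in either direction in HL60 and 36.8%, 55.7% and 55.9% in MOLM13 in the same order, and nothing particular to the list is read from its counts. DDIT3 and TRIB3 are genes of the stress response. In HL60 DDIT3 went from 14.0, 15.4 and 17.7 TPM in DMSO to 220, 140 and 114 TPM after the combination (adjusted p = 6.98e-06), and TRIB3 from 64.8, 74.3 and 56.4 to 245, 234 and 149 TPM. In MOLM13 TRIB3 went from 30.2, 29.4 and 32.6 to 16.0, 15.9 and 12.7 TPM (adjusted p = 0.000568), and DDIT3 passed there after cytarabine alone, with a log2 fold change of 0.84. The difference between the lines was not tested. ATF4, whose message is held down by upstream reading frames, was lower in all 6 comparisons of HL60 and MOLM13, at 500, 429 and 408 TPM after the combination in HL60 against 635, 703 and 613 in DMSO. GADD45A, a stress gene that the pathway is known to restrain, was higher in MOLM13 after all 3 treatments, reaching 31.3, 49.5 and 42.5 TPM after the combination from 11, 15.7 and 9.90 TPM (adjusted p = 5.71e-05), and in HL60 after cytarabine and the combination. In OCIAML3 edgeR called 0 of the 17, where 0%, 0% and 0% of all genes were called.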

How the data were processed

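The authors quantified RNA-seq reads per transcript with Salmon 1.8.0 after FastQC 0.11.9, per the labels, and deposited estimated counts and TPM for every transcript of each library; edgeR 3.38.1 is also named in the submitters' processing notes. No repeated estimates were used here, so the uncertainty of assigning reads among overlapping transcripts is in no test. Transcript types, stop codons and sequences came from GENCODE release 44 on GRCh38. The members and gene lists were chosen with earlier results of these data known.

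For each line, estimated counts were rounded and transcripts with a mean of at least 10 over its 12 libraries were tested with the edgeR 4.0.16 quasi-likelihood test (R 4.3.3), TMM, 4 groups in 1 fit, Benjamini-Hochberg adjustment over all transcripts. For shares, the offset held the gene's TPM, so the coefficient is the change in share of the gene. Genes were tested on summed counts. Sums over members were compared by exact permutation of samples, within lines where lines were pooled. Alternatives were DESeq2 1.42.0, limma 3.58.1, diffSpliceDGE, other filters, units and denominators, a replicate block and each library left out; those for gene lists and for the pooled host share were chosen after seeing the data. The tests were checked on data simulated from HL60, for cytarabine against DMSO, where the fits returned the size of the changes on average but few single changes passed.

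One gene of the decay machinery list enters its counts and is not reported by itself here. Members were named by rule: up to 5 largest rises and falls per comparison in genes of at least 5 TPM without overlap of groups, the 10 of highest TPM, called members of the SR, hnRNP and decay machinery lists (up to 10 per list) and up to 4 per other list. Tables and figures used matplotlib 3.10.9, pandas 2.3.3 and numpy 2.4.6 under Python 3.11.15.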

Additional observations from a re-analysis of the deposited data

Results flagged for a closer look

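In 3 members flagged here, the treated libraries all lay on one side of DMSO in one line and on the other side in another line after the combination. They are examples and not a count over all members, and none of these differences between lines was tested. After the combination, 13.2%, 10.6% and 5.97% of tested members lay wholly above DMSO in share in HL60, MOLM13 and OCIAML3, and 10.4%, 9.24% and 5.22% wholly below. Over all transcripts these values were 11.8%, 12.6% and 5.85% above and 12.2%, 10.1% and 5.26% below. For DCK-202 the change in share of the gene was -13.12 percentage points in HL60, where all 3 libraries were below DMSO, while all 3 were above it in MOLM13. For CIRBP-228 it was 1.202 percentage points in MOLM13, where it was listed at 0 in DMSO. In OCIAML3 it held 0.350%, 0.256% and 0.106% of CIRBP in DMSO and was listed at 0 after the combination. For IARS1-211 it was -0.4182 percentage points in MOLM13, where it was listed at 0 after the combination. In OCIAML3 it held 0.141%, 0% and 0.384% of IARS1 in DMSO and 0.517%, 1.37% and 0.597% after the combination. Neither change passed in OCIAML3 (edgeR quasi-likelihood adjusted p = 0.92 and 0.957).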

How the results depend on the processing

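Members called by level (HL60, MOLM13 and OCIAML3, each after cytarabine, daunorubicin and the combination) numbered 430, 163, 643, 201, 522, 504, 40, 13 and 39 with DESeq2 and 88, 12, 213, 29, 202, 187, 1, 1 and 1 with no filter. Without a fold threshold they were 137, 477 and 455 in MOLM13 and 1 in OCIAML3 after cytarabine. Without the 2 OCIAML3 libraries named above they were 9 after daunorubicin and 61 after the combination. With 1 library left out they ranged from 93 to 173, 8 to 32 and 229 to 350 in HL60, 20 to 74, 193 to 337 and 182 to 408 in MOLM13, and 0 to 2, 0 to 1 and 0 to 54 in OCIAML3.

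Members called by share were, with limma and a pseudocount of 1, 217, 4 and 492 in HL60 and 7, 305 and 324 in MOLM13; that pseudocount makes the ratio follow the gene's level. With 0.1 they were 6 in HL60 after daunorubicin, 36 and 39 in MOLM13 after daunorubicin and the combination, and 2, 1 and 1 in OCIAML3. With diffSpliceDGE they were 53 and 29 in HL60 and 30 and 45 in MOLM13 after cytarabine and daunorubicin, and 24, 22 and 22 in OCIAML3. Shares of counts gave 9 in MOLM13 and 1 in OCIAML3 after cytarabine, filterByExpr 1 in HL60 after daunorubicin, and no filter 17 and 31 in HL60 after cytarabine and the combination and 36 and 38 in MOLM13 after daunorubicin and the combination, where a fold threshold gave 40 and 41. Without the 2 OCIAML3 libraries 1 was called after the combination. With 1 library left out the counts ranged from 11 to 34, 0 to 4 and 27 to 67 in HL60, 2 to 8, 18 to 83 and 23 to 105 in MOLM13, and 0 to 2, 0 to 1 and 0 to 2 in OCIAML3.

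Same-numbered libraries correlated between 0.0462 and 0.262 in HL60, -0.0237 and 0.0664 in MOLM13 and -0.0784 and 0.114 in OCIAML3, and on gene counts between 0.0997 and 0.406, -0.0162 and 0.427 and -0.302 and 0.516. In HL60 3 of 18 pairs were over 0.1 on transcripts and 17 of 18 on genes, so not every pair was, and the pairing there is a hint from the data. With a replicate block 37 members were called by level in HL60 after daunorubicin, 0 by share there and 51 by share in MOLM13 after the combination, and 17 decay machinery genes were lower in HL60 after daunorubicin. In HL60, MOLM13 and OCIAML3, 12, 11 and 8 of 12 libraries were closest to their own number. The pooled tests above did not use the replicate number. With it as a block, the exact p for the library share over the lines was 0.172 for cytarabine, 0.00391 for daunorubicin and 0.043 for the combination. For the host gene share it was 0.953, 0.00391 and 0.586.

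The library share on counts differed by 3.98%, -3.91% and 5.21% in HL60, -2.50%, -1.63% and -1.76% in MOLM13 and 0.270% and -1.05% in OCIAML3 after cytarabine and daunorubicin. With a minimum of 100 it was -4.07% in HL60 after the combination, without the 10 highest members -9.75% in HL60 after daunorubicin and -2.90% in MOLM13 after cytarabine, and against protein-coding genes 3.06% in HL60 after the combination and -2.97%, -6.14% and -5.87% in MOLM13. Over the lines, the cytarabine difference was -3.35% (exact permutation p = 0.00975) with a minimum of 100 and ranged from -2.75% to -1.33% with 1 library left out, and the combination gave 1.09% on counts and -1.37% against protein-coding genes. The share of the host genes on counts differed by 8.21%, -1.23% and 10.3% in HL60, -0.353%, 1.83% and 2.14% in MOLM13 and 0.595%, 1.09% and 1.33% in OCIAML3, and over the lines by 2.82%, 0.562% and 4.59%. With a minimum of 100 it was -1.58% in HL60 after daunorubicin and -7.12% and -6.63% in MOLM13 after daunorubicin and the combination, and without the 10 highest members -6.40% in HL60 after daunorubicin, -0.625% in MOLM13 after cytarabine and -0.697% and 0.180% in OCIAML3 after daunorubicin and the combination. The cause of these shifts was not tested.

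With limma and a pseudocount of 1, the log2 change turned for IARS1-211 in MOLM13 after daunorubicin (0.17) and the combination (0.16), JUN-202 in HL60 after cytarabine (-0.47) and the combination (-0.30), MAPK11-203 in HL60 after cytarabine (-0.82), daunorubicin (-0.55) and the combination (-1.14), PUS7-204 (0.13) and TCTN1-217 in MOLM13 after the combination (-0.28). Of 1259 fits of named calls with 1 library left out, 897 kept the call and 362 lost it. Of 105 such calls, 36 held with diffSpliceDGE, 62 and 81 with limma at pseudocounts of 0.1 and 1, 80 with the replicate block, 81 with no filter, 97 with filterByExpr and 103 on shares of counts. Low counts limit many members, whose median mean estimated count was 36.7.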
